A study of Sus scrofa with 12 samples.

Results

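The proteasome genes of testis and epididymis were described in Banna mini-pig boars of an inbred line (BMI), with 5 testis libraries and 5 epididymis libraries of Illumina RNA sequencing. All 45 gene rows whose name begins with PSM, a letter from A to G and a digit were taken, of 30640 rows in the files. Of these, 43 are proteasome subunits, activators, inhibitors or assembly chaperones. The other 2, PSMC3IP and PSME3IP1, match the name pattern but are not proteasome subunits. PSMC3IP is a cofactor of meiotic recombination and PSME3IP1 a nuclear partner of the activator PSME3. PSMB5, PSMB6, PSMG1 and PSMG2 were not found by name and were not analysed here.

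The animals were adult and untreated. The labels give an age of 12 months, while the file headers give 11 to 17 months, with 17 months for replicate 4 of both tissues. Per the file headers, libraries of the same replicate number carry the same boar number in both tissues. The long-read libraries of the series, each a pool of 5 boars, were not used here. Library totals ran from 18715154 to 30211957 reads in testis and from 17980578 to 21937263 reads in epididymis, so that 3 reads, which a count of 0 allows, correspond to 0.0993 to 0.167 CPM (counts per library total, scaled to 1000000 reads). These floors cover counting error only. The tissue labels fitted their markers: 8 genes of haploid germ cells, such as protamine PRM1, summed to 11513 to 16504 CPM in testis and 22.7 to 486 CPM in epididymis, and 6 genes of epididymal principal cells to 69.5 to 139 CPM in testis and 10256 to 27715 CPM in epididymis. None of these markers was at 0 in all libraries. Testis replicate 4 stood apart from the other testis libraries. The row of the signal recognition particle RNA held 7.75 CPM there. It held 7888 to 9134 CPM in the remaining 4 testis libraries and 1.00 to 8.27 CPM in epididymis. In this row testis replicate 4 was like the epididymis, and the remaining 4 testis libraries differed from every epididymis library. In those 4, tissue and this difference in library content cannot be told apart. Its part in the tissue calls was not tested. Epididymis replicate 3 held the most RNA of haploid germ cells, 486 CPM against 22.7 to 74.7 CPM in the other epididymis libraries. Single principal cell markers also set it apart, in both directions, which their sum does not show. CRISP1 had 53.2 CPM in it against 1382 to 2680 CPM in the others, and DEFB136 0.729 against 696 to 1398 CPM. GPX5 had 2577 CPM in it against 1.56 to 52.7 CPM, and DEFB128 11667 against 30.8 to 496 CPM.

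The proteasome is the protease that takes apart proteins tagged with ubiquitin. Its barrel-shaped core has outer rings of alpha subunits (PSMA) and inner rings of beta subunits (PSMB), some of which cut proteins. A regulatory particle of ATPases (PSMC) and non-ATPase subunits (PSMD) recognises, unfolds and feeds substrates, and activators (PSME) can cap the core in its place. Interferon induces immunoproteasome subunits that replace the catalytic ones (PSMB8 for PSMB5, PSMB9 for PSMB6, PSMB10 for PSMB7). In mice, male germ cells make an alpha subunit of their own, PSMA8, which takes the place of PSMA7 in the spermatoproteasome and is required for meiosis.

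Of the 45 rows, 44 passed the filter on low counts. PSMB11, the beta subunit of thymus epithelium, had 0 reads in every library. In edgeR's quasi-likelihood test across all genes, 11 of the 44 members were higher in testis, where 36.6% of all tested genes were. Another 17 were lower in testis, where 37.8% of all genes were, and 16 did not pass an adjusted p of 0.05. The members split in both directions. The count lower in testis was close to the share of all genes, and the count higher in testis was below it. A change beyond 2-fold was called for 5 members higher in testis (27.3% of all genes) and 7 lower in testis (23.4% of all genes). The 5 testis libraries were all higher than the 5 epididymis libraries in 9 members (32.1% of all genes) and below them in 10 (29.3% of all genes). In these tissue samples, fewer cells of a type and less RNA per cell cannot be told apart.

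**Figure D1:**
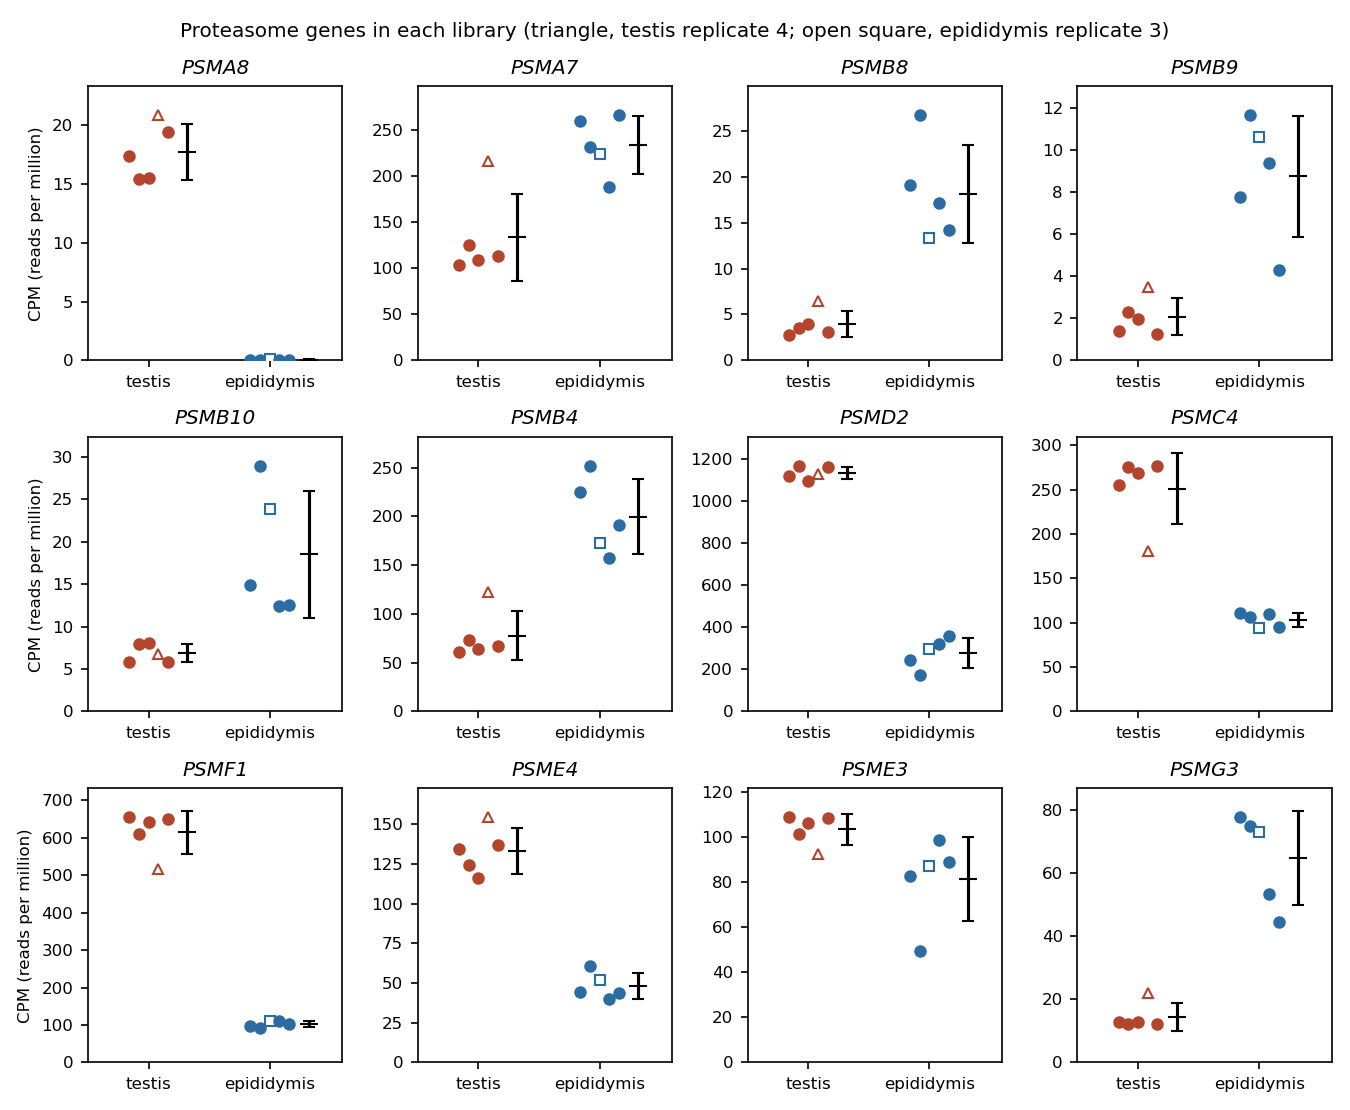
CPM of 12 proteasome genes in each library of testis (left in each panel) and epididymis (right); points are libraries, bars the mean ± SD of 5 libraries, every axis starts at 0. PSMA8, PSMD2, PSMC4, PSMF1 and PSME4 lie higher in all testis libraries, PSMB8, PSMB9, PSMB10, PSMB4 and PSMG3 lower in all of them, and the open triangle marks testis replicate 4.

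PSMA8 had the largest difference of all members. This germ cell alpha subunit (chromosome 6, 110799065 to 110836937, build Sscrofa11.1) had 17.4, 15.4, 15.5, 20.8 and 19.5 CPM in testis replicates 1 to 5, against 0, 0, 0.137, 0.0556 and 0.0490 CPM in epididymis replicates 1 to 5. The epididymis values rest on 0, 0, 3, 1 and 1 reads, against 335 to 474 reads in each testis library, and the tissues did not overlap. The log2 fold change was 8.32 ± 0.50 (testis over epididymis, SE, edgeR adjusted p = 6.9e-08), or 320-fold, and 9.10 without epididymis replicate 3, the library that held 3 of the 5 epididymis reads. PSMA8 averaged 17.7 ± 2.41 CPM in testis against 0.0483 ± 0.0560 CPM in epididymis (SD over 5 libraries).

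PSMA7, the alpha subunit whose place PSMA8 takes (chromosome 17, 61566373 to 61571516), went the other way. It had 104, 125, 109, 216 and 113 CPM in testis replicates 1 to 5, against 259, 231, 223, 188 and 265 CPM in epididymis replicates 1 to 5. Only testis replicate 4 reached into the epididymis range. The log2 fold change was -0.80 ± 0.23 (edgeR adjusted p = 0.00654), and -0.015 when testis was represented by replicate 4 alone (edgeR adjusted p = 0.975). Per kilobase of gene length, PSMA8 made up 16.8, 13.0, 14.7, 10.4 and 17.2% of PSMA7 plus PSMA8 in testis replicates 1 to 5, against 0, 0, 0.0738, 0.0357 and 0.0222% in epididymis replicates 1 to 5. The mean share was 14.4 ± 2.82% in testis against 0.0263 ± 0.0306% in epididymis (SD over 5 libraries; exact two-sided permutation test p = 0.007937, the smallest that 5 against 5 libraries allow, 0.0119 adjusted over 3 shares). With the tissue labels permuted inside each boar, the exact p was 0.0625 (0.0938 adjusted), the smallest possible there and not a call. The PSMA8 and PSMA7 proteins are close relatives, so reads of the paralogs may have been mixed at counting. The 5 epididymis libraries with up to 265 CPM of PSMA7 held at most 3 reads of PSMA8 each. Whether PSMA8 reads of testis were counted as PSMA7, or left out, was not tested, and the share in testis depends on it.

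The other alpha subunits were lower in testis or did not pass the test. PSMA2, PSMA3 and PSMA4 were lower, with log2 fold changes of -1.19 ± 0.39, -1.45 ± 0.34 and -1.04 ± 0.31 (SE, edgeR adjusted p = 0.0146, 0.00208 and 0.00834). PSMA3 had 16.8, 18.2, 14.0, 55.0 and 22.6 CPM in testis replicates 1 to 5, against 70.1, 77.8, 58.0, 65.5 and 74.9 CPM in epididymis replicates 1 to 5. No testis library of PSMA3 reached the epididymis range, and replicate 4 came nearest to it. PSMA1, PSMA5 and PSMA6 did not pass, with log2 fold changes of -0.56, -0.33 and 0.24 (edgeR adjusted p = 0.105, 0.221 and 0.246). With boar as a block, PSMA1 was called lower in testis (log2 -0.69, edgeR adjusted p = 0.0451). Leaving out testis replicate 1 or 3 ended the call of PSMA2 (edgeR adjusted p at most 0.0591).

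Of the 5 constitutive beta subunits found, 3 were lower in testis (37.8% of all genes) and 0 higher (36.6% of all genes). Their median log2 fold change was -0.84 beside -0.075 over all genes. PSMB4, a structural beta subunit (chromosome 4, 97835544 to 97837909), had 61.3, 73.0, 64.3, 123 and 67.5 CPM in testis replicates 1 to 5, against 225, 251, 173, 157 and 191 CPM in epididymis replicates 1 to 5. The tissues did not overlap, and the log2 fold change was -1.36 ± 0.23 (edgeR adjusted p = 0.00023). PSMB1, also structural, had 70.6 ± 12.7 CPM in testis and 130.1 ± 19.4 CPM in epididymis (log2 -0.87 ± 0.18, edgeR adjusted p = 0.000993). PSMB7, the catalytic subunit that PSMB10 replaces (chromosome 1, 265172257 to 265235389), had 32.9, 34.5, 28.0, 77.1 and 29.7 CPM in testis replicates 1 to 5, against 78.3, 76.5, 70.9, 65.0 and 73.0 CPM in epididymis replicates 1 to 5. Testis replicate 4 lay inside the epididymis range and the other 4 testis libraries below it (log2 -0.84 ± 0.27, edgeR adjusted p = 0.0135). This call ended without testis replicate 1 or 3 (edgeR adjusted p at most 0.0629). PSMB2 and PSMB3 overlapped between the tissues and were not called, with log2 fold changes of 0.017 and 0.39 (edgeR adjusted p = 0.929 and 0.157). PSMB3 was called higher in testis without epididymis replicate 2 (log2 0.54, edgeR adjusted p = 0.0476).

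All 3 immunoproteasome subunits were lower in testis (37.8% of all genes), with all testis libraries below all epididymis libraries (29.3% of all genes). PSMB8 (chromosome 7, 25058456 to 25061666) had 2.82, 3.48, 3.98, 6.41 and 3.08 CPM in testis replicates 1 to 5, against 19.1, 26.7, 13.3, 17.2 and 14.2 CPM in epididymis replicates 1 to 5. Its log2 fold change was -2.19 ± 0.30 (edgeR adjusted p = 3.7e-05), that is 4.56-fold lower in testis. PSMB9 (chromosome 7, 25072133 to 25077508) had 1.38, 2.32, 1.99, 3.47 and 1.27 CPM in testis, against 7.79, 11.7, 10.6, 9.40 and 4.31 CPM in epididymis, in the same order (log2 -2.04 ± 0.36, edgeR adjusted p = 0.000252). The gap was narrowest between testis replicate 4 and epididymis replicate 5. PSMB10 (chromosome 6, 28544910 to 28547609) had 5.79, 7.98, 8.01, 6.73 and 5.87 CPM in testis, against 14.9, 28.9, 23.9, 12.4 and 12.5 CPM in epididymis, also in the order of replicates (log2 -1.41 ± 0.29, edgeR adjusted p = 0.000875). Unlike most members, PSMB10 in testis replicate 4 was at 0.974 times the mean of the other testis libraries.

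Immune subunits were minor beside constitutive ones in both tissues. Per kilobase, PSMB8 stood at 1.66 to 2.62% of the mean of PSMB1, PSMB2, PSMB3, PSMB4 and PSMB7 in testis and at 4.49 to 7.12% in epididymis. PSMB9 stood at 0.944 to 1.95% of it in testis and at 1.88 to 5.64% in epididymis, and PSMB10 at 1.31 to 2.13% in testis and 1.89 to 4.38% in epididymis, with overlap for the last 2. Of PSMB7 plus PSMB10, PSMB10 made up 3.22 ± 1.18% in testis against 4.13 ± 1.50% in epididymis (SD over 5 libraries). This difference of -0.91 percentage points did not pass (exact permutation p = 0.317, and 0.317 adjusted). On raw reads, without division by length, the difference was -3.75 points and did not pass either (exact permutation p = 0.325, and 0.325 adjusted). The gene length of PSMB10 in the files, 6072 bases, is longer than the whole RefSeq gene, so its level per kilobase may be understated. The same holds for PSMC3, PSMA4 and PSMC5.

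**Figure D2:**
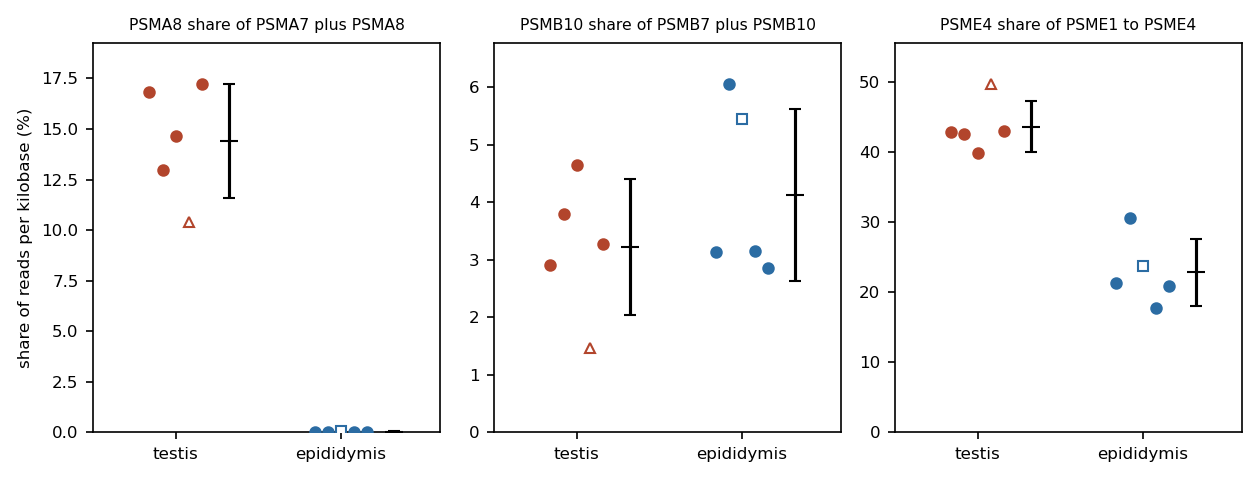
Share of reads per kilobase, in percent, of PSMA8 in PSMA7 plus PSMA8, of PSMB10 in PSMB7 plus PSMB10 and of PSME4 in the 4 PSME genes, for testis (left in each panel) and epididymis (right); points are libraries, bars mean ± SD, the open triangle is testis replicate 4 and the open square epididymis replicate 3. The tissues are apart for PSMA8 and PSME4 and overlap for PSMB10.

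PSMB8 and PSMB9 lie in the major histocompatibility region of chromosome 7 together with TAP1 and TAP2, the chains of the peptide transporter that receives proteasome products. TAP1 (25062772 to 25071989) ends 143 bases before PSMB9 in the RefSeq annotation. TAP2 had 7.25 ± 0.804 CPM in testis and 25.0 ± 5.76 CPM in epididymis (log2 -1.77, edgeR adjusted p = 1.1e-05), and TAP1 10.8 ± 2.54 CPM in testis and 21.6 ± 2.97 CPM in epididymis (log2 -0.97, edgeR adjusted p = 0.00156). Of 22 tested genes of interferon signalling and antigen presentation, 18 were lower in testis (37.8% of all genes) and 0 higher (36.6% of all genes). Their median log2 fold change was -1.60 beside -0.075 over all genes. They include B2M, the light chain of class I molecules, with 28.9 ± 5.92 CPM in testis and 319 ± 142 CPM in epididymis, and IRF1, an interferon-induced transcription factor, with 5.63 ± 0.788 CPM in testis and 26.6 ± 6.17 CPM in epididymis. Summed levels of 6 macrophage markers were 74.5 to 95.9 CPM in testis and 80.0 to 182 CPM in epididymis. Of the 6, 4 were called higher in epididymis (37.8% of all genes) and 1 higher in testis (36.6% of all genes). Summed levels of 7 lymphocyte markers were 11.5 to 14.7 CPM in testis and 11.6 to 30.8 CPM in epididymis. Of 5 tested, 2 were called higher in epididymis (37.8% of all genes) and 1 higher in testis (36.6% of all genes). The part of these cells in the values of PSMB8, PSMB9 and PSMB10 was not tested.

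The regulatory particle split by subunit. Of 6 ATPases of its base, 2 were higher in testis (36.6% of all genes) and 1 was lower (37.8% of all genes). PSMC4 (chromosome 6, 48406237 to 48414470) had 255, 276, 269, 181 and 276 CPM in testis replicates 1 to 5, against 111, 106, 93.7, 110.1 and 94.7 CPM in epididymis replicates 1 to 5. The tissues did not overlap, and testis replicate 4 was the lowest of its tissue (log2 1.31 ± 0.17, edgeR adjusted p = 2.7e-05). PSMC3 had 147, 143, 146, 165 and 146 CPM in testis replicates 1 to 5, against 122, 144, 80.8, 67.9 and 82.9 CPM in epididymis replicates 1 to 5. Epididymis replicate 2 overlapped the testis range of PSMC3, and its call (log2 0.59 ± 0.23, edgeR adjusted p = 0.0319) ended when testis replicate 4, or any of epididymis replicates 3 to 5, was left out (edgeR adjusted p up to 0.0778). PSMC6 was lower, with 21.4 ± 8.11 CPM in testis and 42.1 ± 7.71 CPM in epididymis (log2 -0.97 ± 0.24, edgeR adjusted p = 0.00315). PSMC1, PSMC2 and PSMC5 were not called, with log2 fold changes of -0.096, -0.020 and -0.037, each of which turned positive with DESeq2 size factors.

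PSMD2, the scaffold subunit of the base that holds ubiquitin receptors (chromosome 13, 122187500 to 122199397), had the highest mean level per kilobase among the members in testis, at 155 reads per kilobase and 1000000 reads. In epididymis PSMB4 was the highest, at 209 on the same scale. PSMD2 had 1120.3, 1166, 1096, 1129 and 1162 CPM in testis replicates 1 to 5, against 246, 175, 298, 319.6 and 359.7 CPM in epididymis replicates 1 to 5. The testis libraries were alike and all far above the epididymis (log2 2.05 ± 0.21, edgeR adjusted p = 3.2e-06). PSMD1, the other large scaffold of the base, had 72.9 ± 16.1 CPM in testis and 79.6 ± 19.2 CPM in epididymis and was not called (log2 -0.11 ± 0.21, edgeR adjusted p = 0.646). Although the assembled base holds both scaffolds, the level of PSMD2 per kilobase was 8.35 to 14.8 times that of PSMD1 in testis libraries and 2.15 to 2.80 times in epididymis libraries. Such gaps were not particular to this pair. Per kilobase, PSMD3 was at 8.92 to 24.8 times PSMD12 in testis and 4.92 to 13.3 times in epididymis. PSMA7 was at 8.44 to 16.7 times PSMA3 in testis and 6.15 to 8.26 times in epididymis. For PSMC4 over PSMC6 the ranges were 3.15 to 10.3 and 1.08 to 1.80. PSMD4, a ubiquitin receptor, had 61.4 ± 27.3 CPM in testis and 71.6 ± 8.12 CPM in epididymis and was not called either (log2 -0.21 ± 0.24, edgeR adjusted p = 0.446).

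Of 8 subunits of the lid, which removes ubiquitin, 3 were higher in testis (36.6% of all genes) and 1 was lower (37.8% of all genes). PSMD8 (chromosome 6, 47289891 to 47297059) had 148, 153, 151, 190.1 and 157 CPM in testis replicates 1 to 5, against 115, 93.9, 89.5, 103 and 118 CPM in epididymis replicates 1 to 5, without overlap (log2 0.64 ± 0.15, edgeR adjusted p = 0.00247). PSMD11 had 89.2 ± 7.39 CPM in testis and 63.8 ± 11.7 CPM in epididymis, and PSMD3 296 ± 20.0 CPM in testis and 213 ± 34.1 CPM in epididymis (log2 0.50 ± 0.17 and 0.49 ± 0.18, edgeR adjusted p = 0.0158 and 0.0247). The call of PSMD3 ended when testis replicate 2 or either of epididymis replicates 3 and 4 was left out (edgeR adjusted p up to 0.0704). PSMD6 was lower, with 34.9 ± 14.0 CPM in testis and 63.7 ± 20.7 CPM in epididymis (log2 -0.85 ± 0.27, edgeR adjusted p = 0.0126). Leaving out testis replicate 1 or 3 ended it (edgeR adjusted p up to 0.0578). PSMD14, the deubiquitinase of the lid, had 35.8 ± 15.8 CPM in testis and 36.9 ± 7.75 CPM in epididymis (log2 -0.033 ± 0.26, edgeR adjusted p = 0.915). PSMD7, PSMD12 and PSMD13 were not called either, with log2 fold changes of -0.51, -0.69 and 0.12. With boar as a block PSMD12 was called lower in testis (log2 -0.76, edgeR adjusted p = 0.0208).

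**Figure D3:**
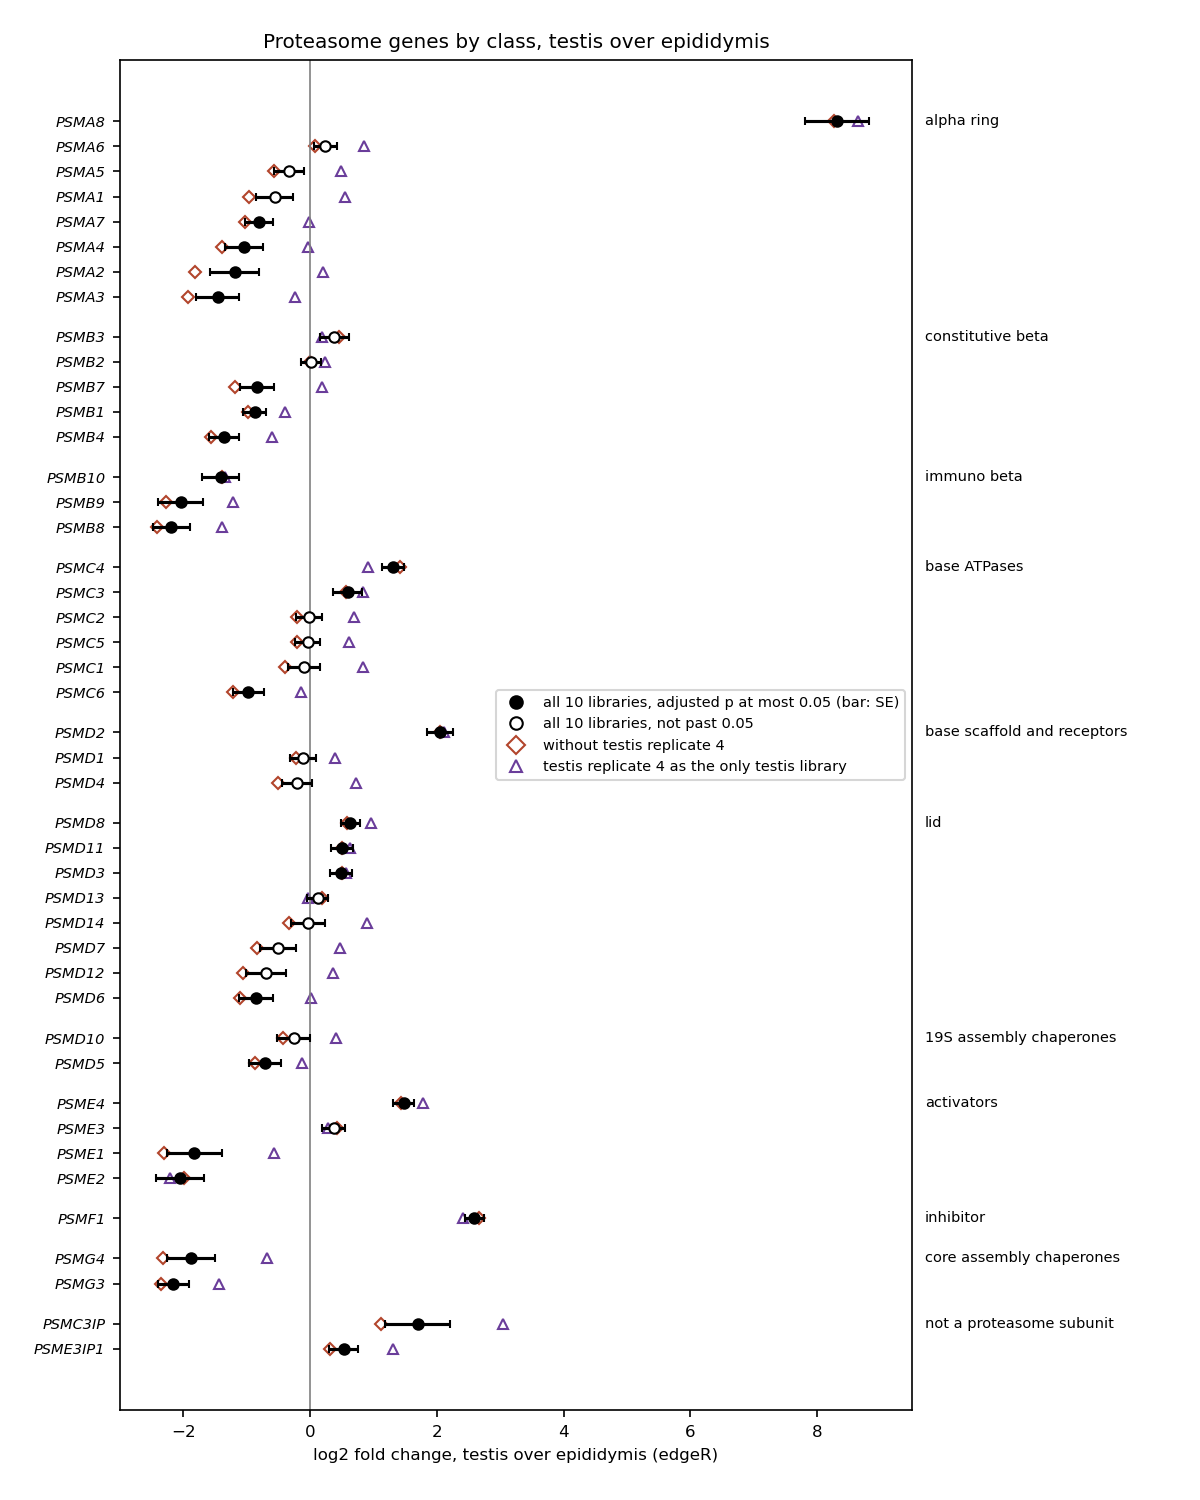
Log2 fold change (testis over epididymis) of the 44 tested members by class, with SE; filled circles passed an edgeR adjusted p of 0.05, open diamonds leave out testis replicate 4 and triangles use it as the only testis library. PSMA8 stands at 8.32, PSMF1 at 2.59 and PSMD2 at 2.05, while many alpha and lid genes lie below 0 as circles and near or above 0 as triangles. Of the constitutive beta genes PSMB7 does so too, while PSMB1 and PSMB4 stay below 0 as triangles, at -0.40 and -0.60.

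Of the members, PSMF1 had the second largest log2 fold change towards testis. PSMF1, an inhibitor of the core (chromosome 17, 34118324 to 34164723), had 654, 609.9, 643, 516 and 651 CPM in testis replicates 1 to 5, against 98.3, 93.2, 112, 111 and 104 CPM in epididymis replicates 1 to 5. The gap between the tissues was wide in every library (log2 2.59 ± 0.16, edgeR adjusted p = 7.3e-08, 6.04-fold). PSMD2 and PSMF1 together account for much of the reads of the 43 proteasome genes: PSMD2 took 21.2 to 25.9% in testis and 5.12 to 9.78% in epididymis, and PSMF1 9.69 to 15.2% in testis and 2.73 to 3.44% in epididymis. The 43 genes summed to 4232 to 5325 CPM in testis and 3249 to 3721 CPM in epididymis. Without PSMD2 and PSMF1 testis replicate 4 summed to 3680 CPM, the remaining testis libraries to 2493 to 2762 CPM and the epididymis libraries to 2839 to 3257 CPM.

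Of the 4 activators, 1 was higher in testis (36.6% of all genes) and 2 were lower (37.8% of all genes). PSME4, which caps the core in germ cells of mice and promotes the breakdown of acetylated histones (chromosome 3, 87231510 to 87337709), had 135, 124, 116, 154 and 137 CPM in testis replicates 1 to 5, against 44.5, 60.8, 52.0, 39.8 and 43.9 CPM in epididymis replicates 1 to 5. All testis libraries lay above the epididymis (log2 1.48 ± 0.17, edgeR adjusted p = 9.0e-06). PSME3, the nuclear activator, had 109, 101, 106, 92.4 and 109 CPM in testis replicates 1 to 5, against 82.8, 49.6, 87.2, 99.0 and 89.1 CPM in epididymis replicates 1 to 5. Testis replicate 4 fell within the epididymis range of PSME3, which was not called (log2 0.37 ± 0.18, edgeR adjusted p = 0.0779) but was called with DESeq2 size factors (log2 0.50, edgeR adjusted p = 0.0227). Per kilobase, PSME4 made up 43.6 ± 3.63% of the 4 PSME genes in testis against 22.8 ± 4.79% in epididymis (SD over 5 libraries; exact two-sided permutation test p = 0.007937, the smallest possible, 0.0119 adjusted). The lowest testis library was at 39.9% and the highest epididymis library at 30.6%, and within boars the exact p was 0.0625, again the smallest possible.

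The interferon-induced activators PSME1 and PSME2 were low in all libraries. PSME1 (chromosome 7, 75161830 to 75164531) had 0.307, 0.695, 0.370, 1.39 and 0.328 CPM in testis replicates 1 to 5, against 1.93, 2.41, 2.60, 2.67 and 1.52 CPM in epididymis replicates 1 to 5. PSME2 (75154570 to 75157871) had 1.28, 0.927, 1.02, 0.962 and 1.56 CPM in testis, against 4.73, 9.03, 3.56, 3.17 and 3.48 CPM in epididymis, in the order of replicates. Neither overlapped between the tissues, with log2 fold changes of -1.83 ± 0.44 and -2.05 ± 0.37 (edgeR adjusted p = 0.00232 and 0.000334). The rows between and beside them were low as well: EMC9 had 1.19 to 3.31 CPM in testis and 1.86 to 5.70 CPM in epididymis, and IRF9 0.107 to 0.894 CPM in testis and 0.182 to 1.45 CPM in epididymis. FITM1, a lipid droplet gene beyond PSME1, had 0.695 to 14.0 CPM in testis and 0.182 to 1.10 CPM in epididymis. Genes farther out were mixed in level. REC8, a meiotic cohesin subunit, had 115 to 183 CPM in testis and 3.33 to 16.9 CPM in epididymis, and DCAF11 93.6 to 105 CPM in testis and 81.6 to 206 CPM in epididymis. Beyond DCAF11, NRL had 0.0463 to 0.374 CPM in testis and 0 to 0.204 CPM in epididymis. CPNE6 had 0.717 to 1.87 CPM in testis and 0 to 0.0548 CPM in epididymis. EMC9 and PSME1 overlap in the RefSeq annotation, and whether reads of this stretch were left out at counting was not tested.

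Of the 5 assembly chaperones described here, 4 were lower in testis (37.8% of all genes), 1 of them, PSMD9, from outside the name rule. PSMG3 and PSMG4 help to build the alpha ring. PSMG3 (chromosome 3, 1052185 to 1054716) had 12.8, 12.0, 12.7, 22.2 and 12.2 CPM in testis replicates 1 to 5, against 77.7, 75.1, 73.2, 53.4 and 44.5 CPM in epididymis replicates 1 to 5. PSMG4 (chromosome 7, 1980295 to 1987946) had 14.7, 10.3, 14.4, 38.6 and 13.1 CPM in testis, against 69.7, 104, 48.0, 47.4 and 61.7 CPM in epididymis, in the order of replicates. Both were separated between the tissues, although testis replicate 4 of PSMG4 stood well above the other testis libraries (log2 -2.16 ± 0.24 and -1.88 ± 0.38, edgeR adjusted p = 7.8e-06 and 0.000756). PSMD5, a chaperone of the base, was lower in testis with 18.3 ± 5.06 CPM against 30.3 ± 9.33 CPM in epididymis (log2 -0.72 ± 0.25, edgeR adjusted p = 0.0224). This call ended with DESeq2 size factors (edgeR adjusted p = 0.0530) and when testis replicate 1, 2 or 3, or epididymis replicate 5, was left out (edgeR adjusted p up to 0.0948). PSMD10, a chaperone also known as gankyrin, was not called (log2 -0.26 ± 0.26, edgeR adjusted p = 0.369). PSMD9, a further chaperone of the base, is listed in the files by its Ensembl identifier and so falls outside the name rule. It had 29.8 ± 5.35 CPM in testis and 65.8 ± 4.59 CPM in epididymis (log2 -1.13 ± 0.16, edgeR adjusted p = 4.2e-05).

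PSMC3IP, the recombination cofactor that is not a proteasome subunit (chromosome 12, 20244243 to 20250151), had 4.25, 3.74, 3.52, 14.4 and 4.56 CPM in testis replicates 1 to 5, against 2.60, 1.59, 2.96, 1.72 and 0.539 CPM in epididymis replicates 1 to 5. The tissues did not overlap, and testis replicate 4 was 3.58 times the mean of the other testis libraries (log2 1.70 ± 0.51, edgeR adjusted p = 0.00937). PSME3IP1 had 66.8 ± 23.0 CPM in testis and 46.3 ± 7.57 CPM in epididymis, a difference just past the threshold (log2 0.53 ± 0.23, edgeR adjusted p = 0.0495). It was not called with boar as a block (edgeR adjusted p = 0.102) nor when testis replicate 4 or 5, or epididymis replicate 1, 3, 4 or 5, was left out (edgeR adjusted p up to 0.121).

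**Figure D4:**
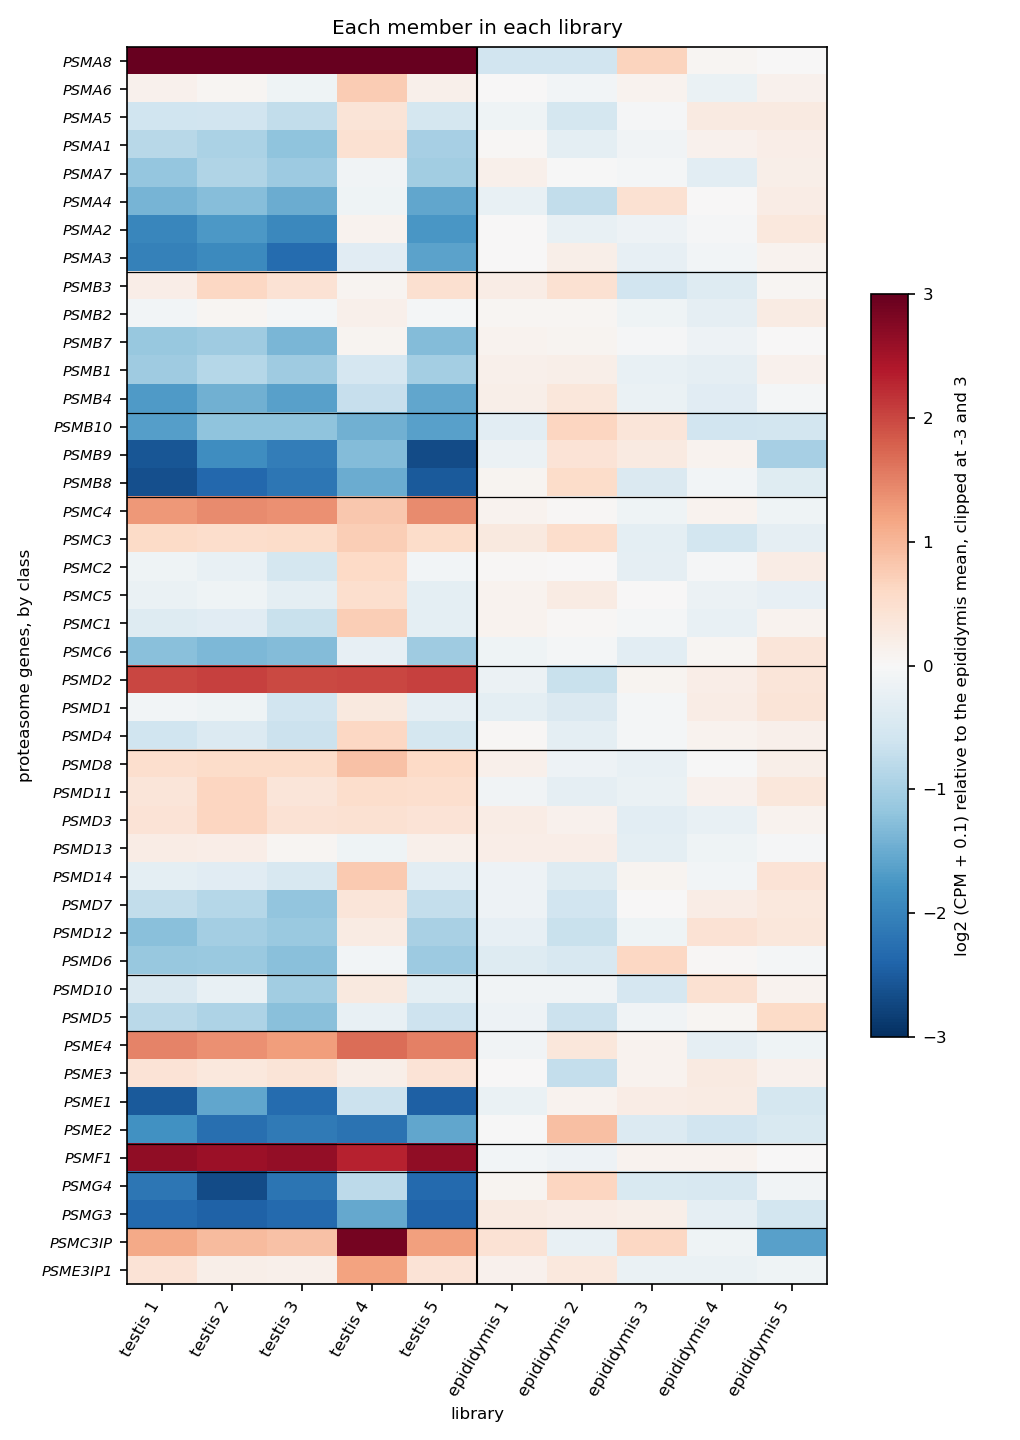
Log2 of (CPM + 0.1) relative to the epididymis mean for the 44 tested members (rows, by class) in the 5 testis and 5 epididymis libraries (columns), clipped at -3 and 3. In PSMA1 to PSMA5, PSMA7 and several lid genes, testis replicates 1, 2, 3 and 5 are blue (below the epididymis mean) and testis replicate 4 is pale or red.

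Testis replicate 4 had more proteasome mRNA than the other testis libraries in most members. It was at least 1.5 times the mean of testis replicates 1, 2, 3 and 5 in 27 of 44 members, where 24.4% of all genes were, and at least 1.5 times below it in 0 of 44, where 21.8% of all genes were. Cell type markers moved in the same library. The 8 haploid germ cell markers summed to 16504 CPM in it and to 11513 to 12771 CPM in the other testis libraries. PRM1, the most abundant of them, was at 0.956 times the mean of the other testis libraries, and the rest were at 1.34 to 5.92 times it. The 8 meiotic germ cell markers summed to 750.5 CPM in it and to 1189.5 to 1336 CPM in the others. Only STAG3 and REC8 were lower there, at 0.466 and 0.683 times the mean of the other testis libraries. SYCP1, SYCP3, HORMAD1, SPO11, DMC1 and TEX101 were at 1.235 to 1.91 times that mean, so the meiotic markers did not move together. The 4 endothelial markers summed to 198 CPM in replicate 4 and to 282 to 428 CPM in the others. Singly they were at 0.447 (VWF) to 0.974 (PECAM1) times the mean of the others. Sertoli cell markers summed to 409 CPM in replicate 4 and to 451 to 493 CPM in the others. For Leydig cell markers the sums were 12144 and 12632 to 19341 CPM, and for epididymal principal cell markers 139 and 69.5 to 92.0 CPM. The part of these cells in the members' values was not tested. Over the 44 members the ratio ran from 0.672 for PSMC4 to 3.84 for PSMA2, with a median of 1.78. In 12 members, testis replicates 1, 2, 3 and 5 lay below every epididymis library and replicate 4 did not, where 4.51% of all genes did so. These were PSMA1, PSMA2, PSMA4, PSMA5, PSMA7, PSMB7, PSMC1, PSMC6, PSMD4, PSMD6, PSMD7 and PSMD12. PSMA2 had 28.6, 33.5, 28.9, 119 and 33.0 CPM in testis replicates 1 to 5, against 112, 94.5, 99.2, 109 and 139 CPM in epididymis replicates 1 to 5.

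The 12 members above were picked by where replicate 4 lay, so their values with it alone follow from that choice and add no support. When testis was represented by replicate 4 alone, 9 of these 12 had a log2 fold change above 0. The other 3, PSMA4, PSMA7 and PSMC6, had one between -0.14 and -0.015. Without testis replicate 4, 9 members were higher in testis (37.9% of all genes) and 23 were lower (38.2% of all genes), and the members' median log2 fold change was -0.47, against -0.23 with all libraries. With replicate 4 alone for testis, 8 members were higher in testis (23.4% of all genes) and 1 was lower, PSMG3 (11.4% of all genes), with a median of 0.37. The spread in that fit comes from the epididymis libraries alone. The 11 members called higher in testis with all libraries lay above every epididymis library in testis replicate 4, whereas of the 17 called lower, 10 lay below every epididymis library in it and 7 within their range. Replicate 4 was among the libraries that made these calls, so its position is partly fixed by them. The share of all genes was not computed, and the counts are not shown to be particular to the members. PSMA8, PSMC3IP, PSMC4, PSMD2, PSMD8, PSME4 and PSMF1 were called higher in testis with all libraries, without replicate 4 and with replicate 4 alone.

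Among proteins that work with the proteasome under other names, 3 of 13 tested partners were higher in testis (36.6% of all genes). Another 3 were lower (37.8% of all genes), and the median log2 fold change of the 13 was 0.25. AKIRIN2, which brings proteasomes into the nucleus, had 128 ± 18.5 CPM in testis and 54.7 ± 7.25 CPM in epididymis (log2 1.24 ± 0.16, edgeR adjusted p = 2.3e-05). ADRM1, a ubiquitin receptor of the base, had 197 ± 18.9 CPM in testis and 141 ± 59.5 CPM in epididymis and was not called (edgeR adjusted p = 0.146). ZFAND5, which stimulates the proteasome, was lower with 48.6 ± 10.1 CPM in testis and 165 ± 48.4 CPM in epididymis, and USP14, a deubiquitinase bound to the base, with 31.0 ± 3.53 CPM in testis and 57.7 ± 15.7 CPM in epididymis (log2 -1.74 ± 0.22 and -0.88 ± 0.20, edgeR adjusted p = 1.7e-05 and 0.00188). POMP, the maturation chaperone of the core, had 2.36 ± 0.311 CPM in testis and 3.83 ± 0.945 CPM in epididymis (log2 -0.68 ± 0.26, edgeR adjusted p = 0.0343).

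Shuttle proteins carry tagged substrates to the proteasome. Of 8 tested, 5 were higher in testis (36.6% of all genes) and 2 were lower (37.8% of all genes), with a median log2 fold change of 1.03. UBQLNL had 1214 ± 251 CPM in testis and 5.31 ± 8.67 CPM in epididymis, and DDI1 97.7 ± 31.4 CPM in testis and 0.572 ± 0.597 CPM in epididymis. UBQLN2 was lower in testis, at 9.99 ± 1.86 CPM in testis and 51.4 ± 19.1 CPM in epididymis. Of 4 regulators of proteasome genes, NFE2L1, the factor that raises their transcription when the proteasome is impaired, was higher with 623 ± 121 CPM in testis and 403 ± 61.8 CPM in epididymis (log2 0.65 ± 0.20, edgeR adjusted p = 0.0111). NFE2L2, a regulator of antioxidant genes, was lower with 32.2 ± 9.13 CPM in testis and 148 ± 8.32 CPM in epididymis (log2 -2.19 ± 0.19, edgeR adjusted p = 8.1e-07). Of 6 genes of ubiquitin and of the segregase VCP, 2 were higher in testis (36.6% of all genes) and 2 lower (37.8% of all genes). RPS27A, which encodes ubiquitin fused to a ribosomal protein, had 144 ± 83.6 CPM in testis and 939 ± 59.2 CPM in epididymis, while VCP itself had 684 ± 40.0 CPM in testis and 555 ± 74.8 CPM in epididymis and was not called (edgeR adjusted p = 0.0812).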

How the data were processed

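Per the labels, poly(A) RNA was enriched, a SMARTer kit gave the cDNA, and libraries were amplified by PCR; the labels name no molecular identifiers. Tools in the submitters' processing notes are cutadapt 3.0, STAR and featureCounts of Subread, with the build Sscrofa11.1. Annotation release, strand setting and treatment of multi-mapping reads were not given in those sources. Each deposited file holds unnormalized read counts of the genes and, per the file headers, another column with gene length. Since the counting settings are not known, near-identical copies and overlapping genes are uncertain. Positions are of whole genes in RefSeq's table of the same build, which holds 44 of the 45 members. Of 15226 rows with an identifier, 822 were in the gene name table and 810 were named from it.

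CPM is over the library total. Levels of different genes were compared per kilobase of the length in the files. Tissues were compared with edgeR 4.0.16 in R 4.3.3: filterByExpr (17225 genes), TMM factors, robust quasi-likelihood test, Benjamini-Hochberg adjustment over all genes, glmTreat for a change beyond 2-fold. SEs are the unshrunk log2 fold change over the square root of F. Alternatives used DESeq2 1.42.0, other scaling and filters, left-out libraries and boar as a block. The script recovered known changes in simulated data. Those data had few changed genes, balanced in direction, and the same spread in all libraries, unlike the data here. The simulation checked the code and not the scaling or the calls in these libraries. Shares were tested by exact permutation (scipy 1.17.1). Of 5 shares planned, 3 were computed, because PSMB5 and PSMB6 were not found by name. Between libraries of a tissue, chi-square divided by its degrees of freedom was at least 9.53, so each counts as 1 replicate.

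Both tissues of a boar share a number in the file headers, which pairs the libraries, although deviations from the tissue means of same-numbered libraries correlated at only 0.00818 to 0.0946 over genes in replicates 1, 2, 3, 4 and 5. Named with values in every library were PSMA7, PSMA8, PSMB7 to PSMB11, the PSME genes, PSMF1, PSMC3IP and the 4 other members with the highest and the 4 with the lowest fold change; PSMA2 was added after its values were seen. Members and lists were chosen with earlier results of these data known. Values of some genes in the lists are not reported here.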

Additional observations from a re-analysis of the deposited data

Results flagged for a closer look

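A library was singled out where its distance to the nearest other library of its tissue exceeded 0.71 of the tissue's range on the log2 CPM scale. Chance alone does so in about 1 of 20 groups of samples. The measure was applied to members and shares only, so no share of all genes stands beside the counts below. Testis replicate 4 also differed from its tissue across genes at large. Chi-square divided by its degrees of freedom was 152 to 198 between it and the other testis libraries, and 9.53 to 26.6 among those others. The counts are therefore not a trait shown to be particular to the members.

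Testis replicate 4 was the highest of its tissue by this measure in 20 members. In the core these were PSMA1 (87.7 CPM), PSMA2 (119), PSMA4 (51.0), PSMA5 (66.3), PSMA7 (216), PSMB4 (123) and PSMB7 (77.1). In the regulatory particle they were PSMC1 (138 CPM), PSMC3 (165), PSMC5 (260.0), PSMC6 (35.7), PSMD4 (109.9), PSMD6 (59.8), PSMD8 (190.1), PSMD12 (49.9) and PSMD14 (63.9). The others were PSMG3 (22.2 CPM), PSMG4 (38.6), PSMC3IP (14.4) and PSME3IP1 (107). The same library was the lowest of its tissue for PSMC4 (181 CPM). The boar of replicate 4 is given as 17 months old in the file headers, against 11 or 12 months for the others. This library also differs in the signal recognition particle RNA and in the summed markers of haploid, endothelial, Sertoli, Leydig and epididymal principal cells. Its summed meiotic markers are lower through STAG3 and REC8 only. The part of age, cell content or library content in these values was not tested.

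PSMD3 was highest in testis replicate 2 (331 CPM), and PSME3 was lowest in epididymis replicate 2 (49.6 CPM).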

How the results depend on the processing

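Leaving out single libraries gave 8 to 12 members higher in testis and 13 to 23 lower, against 11 and 17 with all libraries. Over all genes these ranges were 6124 to 6980 and 6094 to 6883, against 6308 and 6506. The PSMA8 share differed by 13.7 to 15.4 percentage points, the PSME4 share by 19.2 to 22.7 and the PSMB10 share by -1.27 to -0.43. Leaving out single libraries also turned the sign of 6 members that were not called: the log2 fold change ran from -0.087 to 0.10 for PSMB2, -0.39 to 0.086 for PSMC1, -0.21 to 0.14 for PSMC2, -0.20 to 0.082 for PSMC5, -0.22 to 0.041 for PSMD1 and -0.33 to 0.12 for PSMD14.

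With boar as a replicate block (pairing by number), 10 of 44 members were higher in testis and 19 lower. Over all 17225 genes tested these counts were 6307 and 6055. The shares of PSMA8 and PSME4 kept their differences of 14.4 and 20.7 points with an exact permutation p of 0.0625 (0.0938 adjusted). The block changed no calls of members other than PSMA1, PSMD12 and PSME3IP1.

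DESeq2 size factors moved the median log2 fold change of all genes by 0.13. They turned the sign of PSMC1 to 0.030, PSMC2 to 0.10, PSMC5 to 0.087, PSMD1 to 0.019 and PSMD14 to 0.10, and the DESeq2 test gave 0.036, 0.11, 0.092, 0.021 and 0.10 for these 5 genes. Without epididymis replicates 3 and 4, 7 of 44 members were higher in testis, beside 7217 of all 18222 genes tested. In that fit PSMB2 was at -0.17 and PSMD13 at -0.073. Without testis replicate 4 and epididymis replicate 3, PSMB2 was at -0.063.

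When testis replicate 4 stood alone for its tissue, 1 member and 2145 genes were lower in testis, and the sign turned in 15 members: PSMA1 0.56, PSMA2 0.20, PSMA5 0.49, PSMB7 0.18, PSMC1 0.84, PSMC2 0.69, PSMC5 0.61, PSMD1 0.39, PSMD4 0.72, PSMD6 0.020, PSMD7 0.47, PSMD10 0.41, PSMD12 0.36, PSMD13 -0.034 and PSMD14 0.89. The cause was not tested, and with 1 testis library fewer calls can be made. The shares of PSMB8 with PSMB5 and of PSMB9 with PSMB6 were planned and not run. Low reads limit PSMA8 in epididymis and PSME1, which had 6 to 26 reads in testis libraries.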
